A study of Mus musculus with 12 samples.

Results

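The genes of the major histocompatibility complex (MHC) and of antigen presentation were followed across 4 kinds of mouse samples, 3 libraries of each. These were allograft tumors, lung metastases, primary kidney tumors and sorted proximal tubule cells. The set was taken from the deposited expression table as every row whose mouse symbol begins with H2-, apart from 2 rows marked as pseudogenes with -ps, together with B2m, Tap1, Tap2, Tapbp, Erap1, Psmb8, Psmb9, Psmb10, Nlrc5, Ciita, Cd74, Ctss and Cd1d1. This gave 51 members, 38 of them H2- genes and 13 others, of 24432 genes in all. In the annotation (GENCODE M21, build GRCm38) 43 members lie on chromosome 17, which holds the mouse MHC, and 8 lie elsewhere. Among them 4 are annotated as pseudogenes of some kind (H2-Q5, H2-T10, H2-Bl and H2-K2), and H2-Ke6 encodes a hydroxysteroid dehydrogenase and carries the prefix only because it sits in the locus.

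All 4 groups carry altered alleles of Lats1 and Lats2, the kinases that restrain YAP and TAZ. Allograft tumors grew for 6 weeks from Lats1-/-;Lats2-/- cells placed under the renal capsule of NOD/scid hosts aged 6 to 8 weeks, which lack T and B cells of their own. Lung metastases and primary kidney tumors came from Slc34a1CreERT2;Lats1/2flox/flox mice, in which 3 tamoxifen injections at 1 month of age switched on Cre in cells that use the proximal tubule promoter Slc34a1; they were taken 4 months later. Proximal tubule cells were sorted from Slc34a1CreERT2;Lats1c/c;Lats2c/+;RosaTomato animals. Those animals carry conditional Lats alleles and Cre as well, and are described as wild type by the submitters. No source used here says if those alleles were recombined in the sorted cells. The strain background is labelled mixed in every group, with a mixed source in a NOD/scid host for the allografts, so an H2 haplotype that differs from the reference strain and a changed level cannot be told apart for the polymorphic members. The number of mice, cell clones or tumors behind the libraries is not stated either. The p-values thus speak of the spread among these libraries, and part or all of that spread could be technical.

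MHC class I molecules are a heavy chain paired with the light chain beta-2-microglobulin, and they show peptides from inside the cell to CD8 T cells. Those peptides are cut by proteasomes, carried into the endoplasmic reticulum by the TAP transporter, trimmed there and loaded with the help of tapasin. Class II molecules are pairs of an alpha and a beta chain that show peptides from endosomes to CD4 T cells, and they are made chiefly by macrophages, dendritic cells and B cells. The coactivators NLRC5 and CIITA switch on the class I and class II genes, and interferon gamma raises both. Tubule cells of the kidney are known to gain class II when exposed to interferon gamma.

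Levels are in FPKM, fragments scaled by transcript length and library total as the authors computed them. Changes are log2 differences of FPKM + 1 with their standard error from limma, 3 libraries on each side, and a gene is said to rise or fall where the Benjamini-Hochberg adjusted p over all genes of that comparison was under 0.05. This scale understates the change of low genes. Of the 51 members, 42 reached 1 FPKM in at least 3 of the 12 libraries and were tested among 16313 genes. The depth, roughly estimated from the files, was 11.2 to 18.2 M fragments in the tumor libraries and 4.84 to 6.17 M in the proximal tubule libraries (M, mega), so low members are less well measured in the sorted cells. No source used here says if the sorted-cell columns were quantified in the same way as those of the tumors, and a difference in quantification cannot be told apart from one between sorted cells and tumors. Correlations between libraries of a group across the tested genes were 0.919 to 0.949 in the allograft tumors, 0.953 to 0.963 in the metastases, 0.797 to 0.928 in the primary tumors and 0.961 to 0.969 in the proximal tubule cells. Primary tumors 2 and 3 stood apart from primary tumor 1. The summed level of 7 proximal tubule markers was 10.7 to 29.8 FPKM in the allograft tumors, 32.1 to 41 FPKM in the metastases, 77.6, 3319 and 724 FPKM in primary tumors 1 to 3 and 4726 to 5589 FPKM in the sorted cells, which thus held their defining markers. In bulk RNA, fewer cells of a type and less RNA per cell cannot be told apart.

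**Figure D1:**
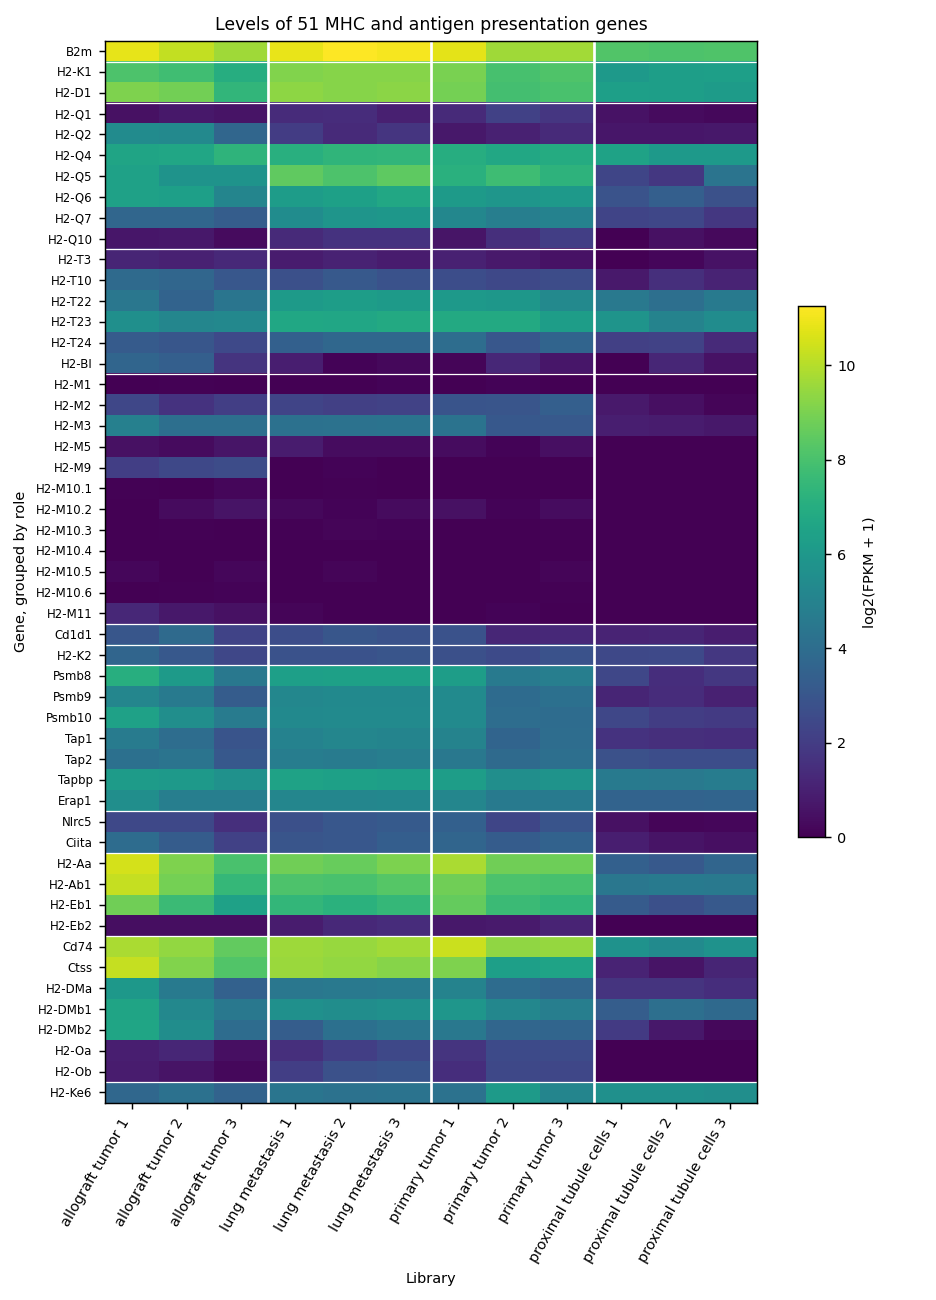
Level of each of the 51 members in each of the 12 libraries, as log2(FPKM + 1) in color, with members grouped by role down the page and groups of libraries separated by white lines. H2-Aa, H2-Ab1, H2-Eb1, Cd74 and Ctss are bright in every tumor library and darker in the 3 proximal tubule libraries, and most M region genes are dark throughout.

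Most members were higher in every kind of tumor than in the proximal tubule cells. Of the 42 tested members 36 were called higher in the allograft tumors and 1 lower, where 52.2% and 16.9% of all tested genes were. In the metastases 38 were higher and 1 lower, beside 54.0% and 14.4% of all genes, and in the primary tumors 36 were higher and 0 lower, beside 48.2% and 4.90%. The median change of the tested members was 2.04 in the allograft tumors, 2.28 in the metastases and 2.04 in the primary tumors, while the median of all tested genes was 0.66, 0.68 and 0.59 in the same 3 comparisons. A large share of all genes was thus called higher than in the sorted cells, and the members' counts are to be read against it. In the primary tumors 36 members had an unadjusted p under 0.05 in limma, and each was higher. The 3 comparisons use the same 3 proximal tubule libraries. A member that passed the filter only through the group where it is high had to differ, so these counts describe the members that were tested, not all 51.

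The split depended on how libraries were scaled. Rescaled to TPM, which takes every library to the same total, 21 of 40 members were higher and 4 lower in the allograft tumors, 29 higher and 1 lower in the metastases, and 22 higher and 1 lower in the primary tumors. The median of all genes then moved to -0.44, -0.24 and -0.34, with 20.7%, 26.4% and 17.4% of genes higher and 44.5%, 37.5% and 34.9% lower. The members' medians under TPM were 1.05, 1.82 and 1.21 in the same order.

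Between the tumor kinds far fewer members differed. The allograft tumors against the metastases had 3 of 42 members higher and 11 lower, beside 10.4% and 13.3% of all genes. Against the primary tumors, the allografts had 6 higher and 10 lower, beside 20.5% and 21.1%, and in the metastases against the primary tumors 1 was higher and 1 lower, beside 11.3% and 9.59%. The members' median was -0.44, -0.06 and 0.33 in these comparisons, and that of all genes was 0.03, -0.02 and 0.01. Rescaling to TPM moved the share of all genes called to 2.63% higher and 12.9% lower in the allograft tumors against the metastases, and to 10.7% and 23.1% in the allograft tumors against the primary tumors, with 3 members higher and 9 lower in each. Without allograft tumor 3, 11 members were higher against the primary tumors and 6 against the metastases, beside 20.8% and 10.1% of all genes. Without metastasis 2, 7 were lower in the allograft tumors than in the metastases, beside 9.32% of all genes. In the metastases against the primary tumors 10 members had an unadjusted p under 0.05. Without primary tumor 1 the counts there were 12 higher and 3 lower, beside 20.2% and 18.2% of all genes.

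**Figure D2:**
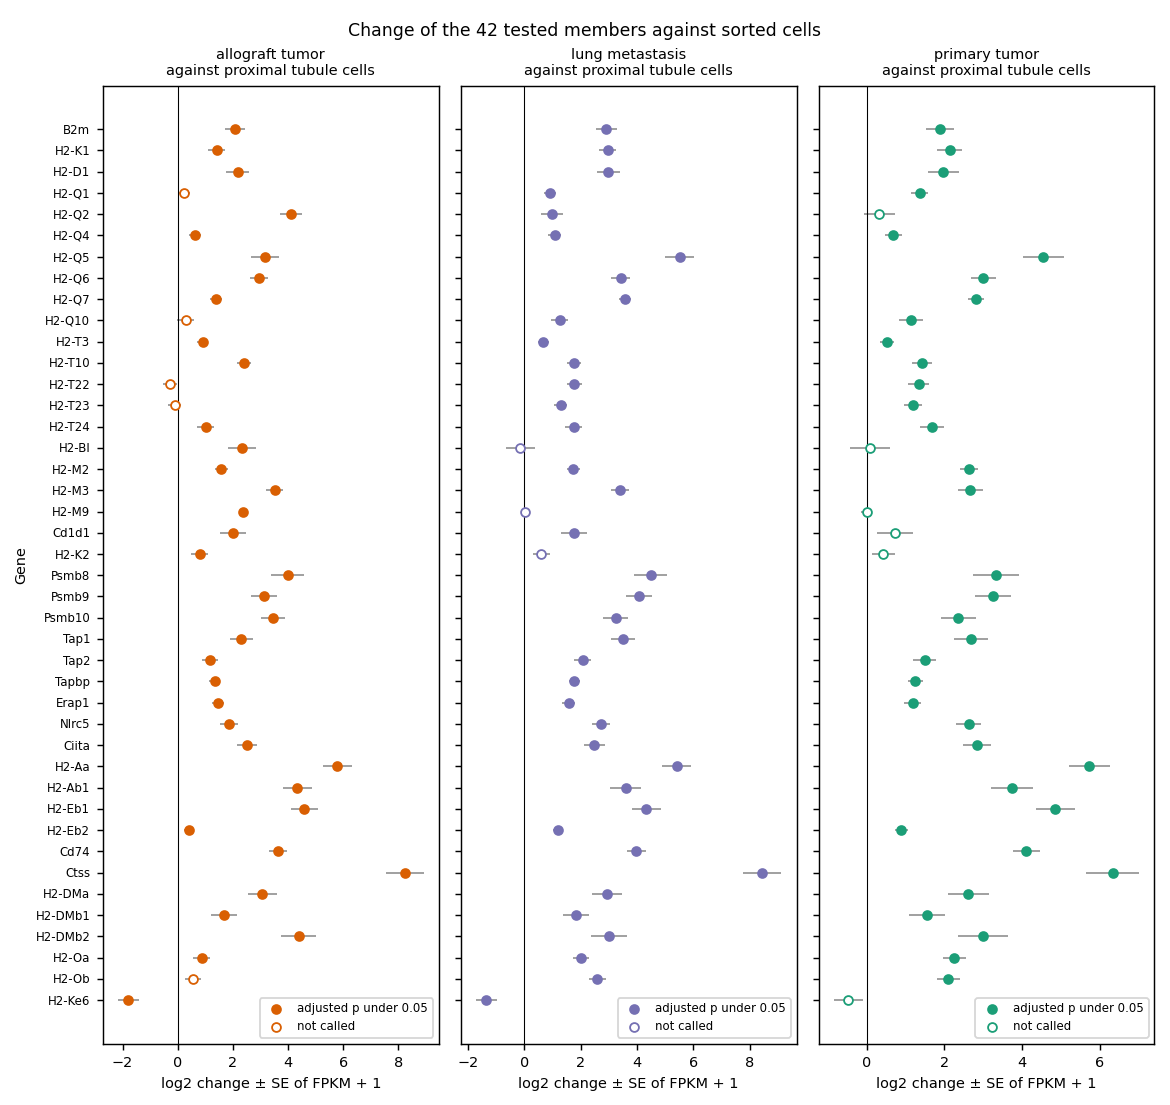
Change of the 42 tested members in allograft tumors, metastases and primary tumors against the proximal tubule cells, as log2 of FPKM + 1 with the standard error; filled points passed limma at an adjusted p under 0.05. Ctss lies farthest to the right in all 3 panels and H2-Aa is among the next, while H2-Ke6 lies to the left of 0 in each.

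Among the largest changes in each kind of tumor were those of class II genes. Their promoters carry a conserved pair of elements, the X box and the Y box, to which the RFX and NF-Y complexes bind and recruit CIITA. In the RefSeq promoters of build GRCm38.p6, 39 of the 51 members had an entry, and the 250 bases before each start were searched on both strands for AACNGATG, taken as the core of an X box, and for the Y box CCAAT. Both spellings were chosen after these promoters had been read, and a match is a description, not a site. The X box core stood in 1.98% of all 32851 promoters and in 5 of 9 promoters of class II chain and loading genes. Of these 5, 1 was Ctss, which had no CCAAT in its window. The core also stood in the promoter of the class I gene H2-M10.4. CCAAT stood in 33.8% of all promoters and in 7 of the 9. The core followed 25 to 35 bases later by a Y box was found in 11 promoters of 32851 (0.0335%), and 4 of these were H2-Eb1, H2-Eb2, H2-DMb1 and H2-DMb2. This window brackets the distances in those 4 promoters, and those of H2-DMb1 and H2-DMb2 are alike in sequence. The share is thus a description, not a test. A RefSeq start can differ from the end of the GENCODE span given for the same gene. The 160 bases before the start of each are printed 5′ to 3′ on the gene's strand, since the shared spacing is visible in them; capitals mark the X box core and CCAAT, which reads ATTGG on the opposite strand.
H2-Eb1 (chr17:34305707-34305866, plus strand): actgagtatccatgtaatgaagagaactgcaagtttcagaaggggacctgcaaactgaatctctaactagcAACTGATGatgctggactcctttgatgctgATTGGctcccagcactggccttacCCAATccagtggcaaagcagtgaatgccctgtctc
H2-Eb2 (chr17:34325515-34325674, plus strand): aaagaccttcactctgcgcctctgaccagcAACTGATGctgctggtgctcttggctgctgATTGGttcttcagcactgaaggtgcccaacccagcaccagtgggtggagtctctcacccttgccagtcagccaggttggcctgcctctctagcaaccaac
H2-DMb1 (chr17:34153031-34153190, plus strand): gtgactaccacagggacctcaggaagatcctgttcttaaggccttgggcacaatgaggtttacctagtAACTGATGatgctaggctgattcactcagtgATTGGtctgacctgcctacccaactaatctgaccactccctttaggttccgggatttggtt
H2-DMb2 (chr17:34145089-34145248, plus strand): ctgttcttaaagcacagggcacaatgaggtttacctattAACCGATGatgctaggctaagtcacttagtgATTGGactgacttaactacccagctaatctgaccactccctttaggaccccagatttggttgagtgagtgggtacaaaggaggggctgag
The distance from the first base of the X box core to the first of the Y box was 30 bases in H2-Eb1 and H2-Eb2 and 31 in H2-DMb1 and H2-DMb2. The promoter of H2-Aa holds a Y box but not this spelling of the X core, and has a palindromic TGACGTCA upstream of it, also in capitals.
H2-Aa (chr17:34287824-34287983, minus strand): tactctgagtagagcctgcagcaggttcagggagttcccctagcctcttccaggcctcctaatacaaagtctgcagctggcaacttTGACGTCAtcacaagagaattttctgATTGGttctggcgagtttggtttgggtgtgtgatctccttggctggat

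All 4 class II chain genes rose in each kind of tumor against the proximal tubule cells. H2-Aa (chr17:34282744-34287823), the alpha chain of the I-A molecule, was at 1454, 544 and 259.8 FPKM in allograft tumors 1 to 3, 442, 402 and 519 FPKM in metastases 1 to 3 and 918, 449 and 434 FPKM in primary tumors 1 to 3. H2-Aa in sorted cells was at 9.81, 7.73 and 11.9 FPKM. Every tumor library lay far above the sorted cells, and allograft tumor 1 was the highest. The change was 5.79 ± 0.52, adjusted p = 9.80e-06 in the allograft tumors, 5.41 ± 0.52, adjusted p = 1.43e-05 in the metastases and 5.73 ± 0.52, adjusted p = 2.86e-05 in the primary tumors. H2-Ab1 (chr17:34257689-34269419), its beta chain partner, was at 1222, 479 and 178 FPKM in allograft tumors 1 to 3, 278, 256 and 311 FPKM in metastases 1 to 3 and 446, 268 and 248 FPKM in primary tumors 1 to 3. For H2-Ab1 the sorted cells gave 21.1, 23.2 and 22.7 FPKM. Its order among the libraries was much the same, with allograft tumor 1 highest and allograft tumor 3 lowest of the tumors. It rose by 4.34 ± 0.54, adjusted p = 5.20e-05 in the allograft tumors, 3.60 ± 0.54, adjusted p = 1.99e-04 in the metastases and 3.74 ± 0.54, adjusted p = 3.29e-04 in the primary tumors. H2-Eb1 (chr17:34305867-34316674), the beta chain of I-E, was at 443, 205 and 84.7 FPKM in allograft tumors 1 to 3, 175, 143 and 179.6 FPKM in metastases 1 to 3 and 385, 202 and 169.7 FPKM in primary tumors 1 to 3. In sorted cells H2-Eb1 was at 8.46, 5.7 and 7.74 FPKM. Here too the tumor libraries did not overlap with the sorted cells (4.60 ± 0.50, adjusted p = 2.53e-05, 4.34 ± 0.50, adjusted p = 4.14e-05 and 4.85 ± 0.50, adjusted p = 5.67e-05 in the same order). H2-Eb2, another E beta gene, was barely expressed, at 0.339, 0.329 and 0.32 FPKM in allograft tumors 1 to 3, 0.823, 1.49 and 1.71 FPKM in metastases 1 to 3 and 0.655, 0.758 and 1.2 FPKM in primary tumors 1 to 3. H2-Eb2 in sorted cells was at 0, 0 and 0 FPKM. It was called higher in all 3 kinds of tumor, but is listed at 0 in the sorted cells, so no fold is given; in the allograft tumors that call (adjusted p = 0.0489) was lost whenever any 1 of the allograft or proximal tubule libraries was left out, for example adjusted p = 0.0928 without allograft tumor 1.

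Among the tumors, H2-Aa, H2-Ab1 and H2-Eb1 were not called in any of the 3 comparisons, and the allograft tumors spread the most. For H2-Aa the metastases differed from the primary tumors by -0.32 ± 0.52, adjusted p = 0.705; without primary tumor 1 the difference was 0.034, adjusted p = 0.97. H2-Eb2 was lower in the allograft tumors than in the metastases (-0.80 ± 0.17, adjusted p = 0.0069) and than in the primary tumors (-0.48 ± 0.17, adjusted p = 0.0409). The call against the primary tumors was lost when any 1 allograft tumor, primary tumor 2 or primary tumor 3 was left out (-0.36, adjusted p = 0.139 without primary tumor 3). H2-Eb2 reached 1 FPKM only in metastases 2 and 3 and primary tumor 3. It passed the filter through groups where it is high, which favored a lower value in the allografts.

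The 2 chains of I-A did not keep the same proportion in the sorted cells. The ratio of H2-Ab1 to H2-Aa within a library was 0.841, 0.88 and 0.686 in allograft tumors 1 to 3, 0.628, 0.638 and 0.598 in metastases 1 to 3 and 0.486, 0.597 and 0.571 in primary tumors 1 to 3. For H2-Ab1 over H2-Aa the sorted cells gave 2.15, 3 and 1.91. The sorted cells thus had more of the beta than of the alpha transcript per length, and every tumor library had less, without overlap. The allograft tumors, which alone had a NOD/scid host, were also above all 6 other tumor libraries. Exact permutation of 3 libraries against 3 cannot give a p below 0.10, so these ratios are descriptions. The ratio of H2-Eb1 to H2-Aa showed the same split, at 0.304 to 0.377 in the allograft tumors, 0.346 to 0.396 in the metastases and 0.391 to 0.449 in the primary tumors, against 0.652 to 0.862 in the sorted cells. That of Cd74 to H2-Aa was 0.63, 1.25 and 1.45 in allograft tumors 1 to 3, 1.77, 1.84 and 1.58 in metastases 1 to 3 and 1.42, 1.5 and 1.64 in primary tumors 1 to 3. In sorted cells Cd74 over H2-Aa was at 5.34, 5.33 and 4.46.

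Of the 7 genes that load class II molecules, 6 rose in the allograft tumors and all 7 in the metastases and the primary tumors against the sorted cells. The calls against the sorted cells of H2-Aa, H2-Ab1, H2-Eb1, Cd74, Ctss, H2-DMa and H2-DMb2 held under every alternative tried. Cd74 (chr18:60803848-60812652) encodes the invariant chain, which escorts new class II molecules to endosomes. It was at 916, 679 and 377 FPKM in allograft tumors 1 to 3, 784, 739.7 and 822 FPKM in metastases 1 to 3 and 1304, 673 and 712 FPKM in primary tumors 1 to 3. Cd74 in sorted cells was at 52.3, 41.2 and 53 FPKM. It was the most abundant class II gene of the sorted cells, where it exceeded H2-Aa in each library, and it rose by 3.64 ± 0.34, adjusted p = 1.12e-05 in the allograft tumors, 3.98 ± 0.34, adjusted p = 6.98e-06 in the metastases and 4.11 ± 0.34, adjusted p = 1.64e-05 in the primary tumors. Ctss (chr3:95526786-95556403) encodes cathepsin S, the protease that cuts the invariant chain from class II. It was at 1239.9, 558 and 294 FPKM in allograft tumors 1 to 3, 758, 694 and 599 FPKM in metastases 1 to 3 and 531, 80.1 and 90.1 FPKM in primary tumors 1 to 3. For Ctss the sorted cells gave 1.18, 0.52 and 1.27 FPKM. Almost none was seen in the sorted cells, and among the primary tumors the first had several times the level of the others. Ctss had the largest change of all members against the sorted cells in each kind of tumor, 8.23 ± 0.68, adjusted p = 6.58e-06 in the allograft tumors, 8.44 ± 0.68, adjusted p = 5.06e-06 in the metastases and 6.33 ± 0.68, adjusted p = 6.68e-05 in the primary tumors. It was also called higher in the allograft than in the primary tumors (1.90 ± 0.68, adjusted p = 0.0453), although these groups overlapped. That call rested on single libraries: it was lost without allograft tumor 1 (1.36, adjusted p = 0.163), allograft tumor 2, primary tumor 2 (1.42, adjusted p = 0.147) or primary tumor 3, without both of these (0.15, adjusted p = 0.896), and under TPM and quantile normalization, among other settings. In the metastases against the primary tumors the value was 2.11 ± 0.68, adjusted p = 0.0508, and without primary tumor 1 it was 2.99, adjusted p = 8.00e-04.

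The exchange factor H2-DM, which swaps the invariant chain remnant for peptide, is built from H2-DMa and an H2-DMb chain. H2-DMa (chr17:34119541-34139101) was at 63.9, 23.2 and 10.3 FPKM in allograft tumors 1 to 3, 21.1, 22.5 and 24.5 FPKM in metastases 1 to 3 and 31.4, 15 and 12.3 FPKM in primary tumors 1 to 3. In sorted cells H2-DMa was at 2.27, 2.25 and 1.8 FPKM. It was higher in all 3 kinds of tumor (3.07 ± 0.53, adjusted p = 4.23e-04, 2.93 ± 0.53, adjusted p = 6.40e-04 and 2.62 ± 0.53, adjusted p = 0.00223 in allograft tumors, metastases and primary tumors). H2-DMb1 (chr17:34153072-34160230) was at 93.2, 36.7 and 21.8 FPKM in allograft tumors 1 to 3, 48.7, 44.1 and 49.6 FPKM in metastases 1 to 3 and 59.6, 35.7 and 26.7 FPKM in primary tumors 1 to 3. H2-DMb1 in sorted cells was at 8.96, 16.1 and 13.3 FPKM. Its rise was smaller, at 1.68 ± 0.46, adjusted p = 0.00741 in the allograft tumors, 1.85 ± 0.46, adjusted p = 0.00458 in the metastases and 1.55 ± 0.46, adjusted p = 0.0164 in the primary tumors. The call in the primary tumors was lost without primary tumor 1 (1.24, adjusted p = 0.056) or without proximal tubule library 1 (1.34, adjusted p = 0.0611), and under TPM all 3 calls were lost (0.32, adjusted p = 0.512, 0.83, adjusted p = 0.104 and 0.49, adjusted p = 0.331). H2-DMb2 (chr17:34143307-34151555) was at 96.2, 45.2 and 14.7 FPKM in allograft tumors 1 to 3, 9.11, 17 and 20.4 FPKM in metastases 1 to 3 and 21.7, 12 and 11.9 FPKM in primary tumors 1 to 3. For H2-DMb2 the sorted cells gave 2.82, 0.671 and 0.181 FPKM. Its change was 4.40 ± 0.63, adjusted p = 1.36e-04 in the allograft tumors, 3.00 ± 0.63, adjusted p = 0.00174 in the metastases and 2.99 ± 0.63, adjusted p = 0.00295 in the primary tumors. The proportion of the 2 beta genes differed between the groups: H2-DMb2 over H2-DMb1 was 1.03, 1.23 and 0.672 in allograft tumors 1 to 3, 0.187, 0.385 and 0.411 in metastases 1 to 3 and 0.364, 0.337 and 0.445 in primary tumors 1 to 3. In sorted cells H2-DMb2 over H2-DMb1 was at 0.314, 0.0417 and 0.0136. The 3 allograft tumors, which alone had a NOD/scid host, lay above the 9 other libraries, and this was not tested. The genes share 31.4% of the 31-letter words of H2-DMb1 transcripts and lie side by side, so reads may have been split between them by the quantification, and their separate levels are uncertain.

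H2-Oa and H2-Ob form H2-DO, an inhibitor of H2-DM that is typical of B cells. H2-Oa (chr17:34092340-34095234) was at 0.928, 1.29 and 0.386 FPKM in allograft tumors 1 to 3, 1.85, 3.24 and 4.45 FPKM in metastases 1 to 3 and 2.2, 4.73 and 4.93 FPKM in primary tumors 1 to 3. H2-Oa in sorted cells was at 0, 0 and 0 FPKM. H2-Ob (chr17:34238903-34254414) was at 0.789, 0.527 and 0.186 FPKM in allograft tumors 1 to 3, 3.3, 5.94 and 6.48 FPKM in metastases 1 to 3 and 1.78, 4.48 and 4.22 FPKM in primary tumors 1 to 3. For H2-Ob the sorted cells gave 0, 0 and 0 FPKM. Both are listed at 0 in every proximal tubule library, and in the tumors they were lowest in the allografts. H2-Ob reached 1 FPKM only in metastases and primary tumors, and H2-Oa in these and in allograft tumor 2. Both thus passed the filter through the groups where they are high, which favored the differences below. H2-Oa was called higher in each kind of tumor than in the sorted cells (adjusted p = 0.0237 in the allograft tumors, adjusted p = 1.90e-04 in the metastases and adjusted p = 2.07e-04 in the primary tumors), the allograft call being lost without allograft tumor 1 or 2 or any 1 proximal tubule library (adjusted p = 0.0861 without allograft tumor 2). H2-Ob was called higher in the metastases (adjusted p = 3.44e-05) and the primary tumors (adjusted p = 2.68e-04) and did not pass in the allograft tumors (adjusted p = 0.107). Between tumors, H2-Ob fell in the allografts against the metastases (-2.04 ± 0.29, adjusted p = 7.74e-04) and against the primary tumors (-1.54 ± 0.29, adjusted p = 0.00246), with no overlap. The call against the primary tumors was lost without primary tumors 2 and 3 (-0.91, adjusted p = 0.0856). H2-Oa fell likewise against the metastases (-1.14 ± 0.30, adjusted p = 0.0198) and the primary tumors (-1.39 ± 0.30, adjusted p = 0.00472). The call against the metastases was lost without allograft tumor 3 (-0.94, adjusted p = 0.0609), metastasis 2 or metastasis 3 (-0.93, adjusted p = 0.0851), and that against the primary tumors without primary tumors 2 and 3 (-0.81, adjusted p = 0.155). Relative to its target, the ratio of H2-Oa to H2-DMa was 0.0145 to 0.0555 in the allograft tumors, 0.0875 to 0.182 in the metastases and 0.0702 to 0.401 in the primary tumors.

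Markers of immune cells and of other cell types were also higher in the tumors. The summed level of 9 macrophage markers was 4359.9, 2435 and 1169 FPKM in allograft tumors 1 to 3, 1432, 1200.3 and 1003 in metastases 1 to 3 and 1651, 220.3 and 263 in primary tumors 1 to 3, against 9.69, 8.72 and 7.5 FPKM in the proximal tubule cells, and all 9 were called higher in each kind of tumor. The summed class II chains were 3119, 1228 and 523 FPKM in allograft tumors 1 to 3, 896, 803 and 1011 FPKM in metastases 1 to 3 and 1749, 919 and 853 FPKM in primary tumors 1 to 3. In sorted cells the class II sum was at 39.4, 36.6 and 42.3 FPKM. Allograft tumor 1 had the highest of both sums in any library, and allograft tumor 3 the lowest of both among the allografts. In primary tumors 2 and 3, however, class II stood at the level of the metastases while the macrophage sum was several times lower than theirs. Sums of 7 dendritic cell markers were 34 to 69.1 FPKM in the allograft tumors, 52.6 to 63.3 FPKM in the metastases and 39.6 to 66.8 FPKM in the primary tumors, against 1.25 to 3.87 FPKM in the sorted cells, where Clec9a was listed at 0. Set against the pan-leukocyte gene Ptprc, H2-Aa was 10.3, 8.94 and 7.3 in allograft tumors 1 to 3, 5.29, 4.57 and 4.99 in metastases 1 to 3 and 9.52, 12.1 and 8.09 in primary tumors 1 to 3. H2-Aa over Ptprc in sorted cells was at 27.8, 84.5 and 35.9. The primary tumors thus had more H2-Aa per Ptprc than the metastases in every library, and the sorted cells had the most, on very low Ptprc. The metastases also held lung transcripts: 4 markers of alveolar type 2 cells, which can carry class II, summed to 4909 to 7098 FPKM there, against at most 3.33 FPKM in any other tumor and 0 in the sorted cells. All 4 pan-leukocyte markers were higher in each kind of tumor, with sums of 175 to 746 FPKM in the allograft tumors, 564 to 630.1 FPKM in the metastases and 196 to 611 FPKM in the primary tumors, against 0.733 to 2.68 FPKM in the sorted cells. T cell markers summed to 13.2 to 22.3 FPKM in the allograft tumors, 32.2 to 44.8 FPKM in the metastases and 41.3 to 62.4 FPKM in the primary tumors, against 0.648 to 2.52 FPKM in the sorted cells, where Cd3g was listed at 0. Of 6 T cell markers, 4 were lower in the allograft tumors than in the metastases and 4 than in the primary tumors. All 5 fibroblast markers were higher in each kind of tumor, with sums of 898 to 2264 FPKM in the allograft tumors, 387 to 501 FPKM in the metastases and 139 to 869 FPKM in the primary tumors, against 1.35 to 2.65 FPKM in the sorted cells. Of 5 endothelial markers, 2 were higher in the allograft tumors than in the sorted cells and all 5 in the metastases and the primary tumors. Their sums were 57.4 to 109 FPKM in the allograft tumors, 265 to 445 FPKM in the metastases and 119 to 148 FPKM in the primary tumors, against 28.6 to 43.7 FPKM in the sorted cells. The part of any of these cells in the class I and class II results was not tested.

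The sum of 5 B cell markers was 3.61, 2.05 and 1.83 FPKM in allograft tumors 1 to 3, 25.7, 43.7 and 50.3 FPKM in metastases 1 to 3 and 6.7, 13.8 and 22 FPKM in primary tumors 1 to 3. For the B cell sum the sorted cells gave 0.232, 0.385 and 0 FPKM. Cd79b, Ms4a1 and Pax5 were listed at 0 in the sorted cells. All 5 were lower in the allograft tumors than in the metastases and than in the primary tumors, as H2-Oa and H2-Ob were, and 4 of 5 were higher in the metastases than in the primary tumors. In primary tumor 1 the B cell sum and the summed level of H2-Oa and H2-Ob were both the lowest of the 3 primary tumors. Whether B cells carry the difference in H2-Oa and H2-Ob was not tested.

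**Figure D3:**
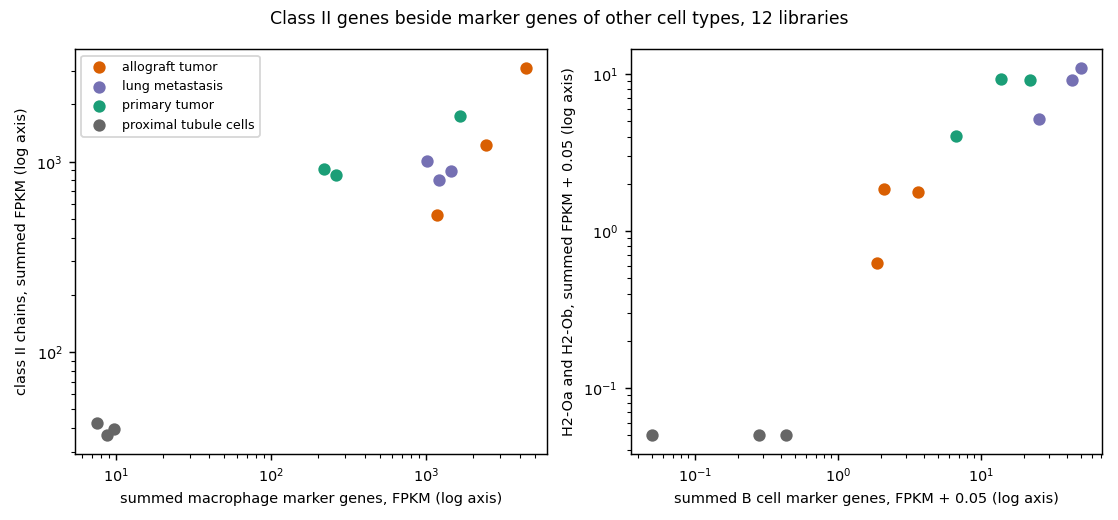
Summed class II chains against summed macrophage markers (left) and summed H2-Oa and H2-Ob against summed B cell markers (right) in FPKM on log axes, with 0.05 added on the right so that values of 0 can be drawn; each point is 1 of the 12 libraries, colored by group. On the left primary tumors 2 and 3 lie at 919 and 853 FPKM of class II with macrophage sums of 220 and 263, apart from the other tumors; on the right the allograft tumors lie below the metastases and primary tumors on both axes.

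B2m and the classical class I genes also rose in every kind of tumor, by less than H2-Aa, H2-Ab1 and H2-Eb1. Their promoters and that of B2m hold an interferon response element, a CRE-like site and a Y box in a fixed order, the class I counterpart of the X and Y pair. A search of the same 250 bases for GAANNGAAA (a core of the interferon response element), TGACG (part of a CRE) and CCAAT, spellings again chosen after reading, found the interferon core in 6.31% of all promoters and in 8 of 23 class I heavy and light chain promoters, and TGACG in 17.8% of all and in 12 of those 23. The 160 bases of the 3 most abundant class I genes are printed in the same way, with these matches in capitals.
H2-K1 (chr17:34000348-34000507, minus strand): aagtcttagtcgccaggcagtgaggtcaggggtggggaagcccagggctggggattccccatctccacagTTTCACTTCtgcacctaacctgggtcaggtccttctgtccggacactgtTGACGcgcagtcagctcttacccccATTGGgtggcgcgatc
H2-D1 (chr17:35262934-35263093, plus strand): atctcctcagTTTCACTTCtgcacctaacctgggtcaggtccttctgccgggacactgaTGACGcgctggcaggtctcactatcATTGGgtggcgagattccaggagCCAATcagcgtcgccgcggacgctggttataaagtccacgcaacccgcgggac
B2m (chr2:122147527-122147686, plus strand): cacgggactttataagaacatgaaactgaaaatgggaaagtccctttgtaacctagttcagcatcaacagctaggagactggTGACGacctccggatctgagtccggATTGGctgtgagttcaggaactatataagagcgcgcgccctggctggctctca
In H2-K1 and H2-D1 the order is interferon core, TGACG, Y box. The B2m window has TGACG and the Y box, and its stretch gaaactgaaa is not matched by the spelling searched.

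B2m (chr2:122147686-122153083), the light chain shared by all class I molecules, was at 1799, 1207 and 805 FPKM in allograft tumors 1 to 3, 1874, 2439 and 2184 FPKM in metastases 1 to 3 and 1785, 799 and 818 FPKM in primary tumors 1 to 3. In sorted cells B2m was at 295, 272 and 286 FPKM. The metastases were the highest group and the sorted cells the lowest, without overlap between them. The change against the sorted cells was 2.08 ± 0.37, adjusted p = 5.30e-04 in the allograft tumors, 2.92 ± 0.37, adjusted p = 6.87e-05 in the metastases and 1.89 ± 0.37, adjusted p = 0.00189 in the primary tumors. H2-K1 (chr17:33996017-34000347), the K heavy chain, was at 278, 224 and 128 FPKM in allograft tumors 1 to 3, 563, 598 and 588 FPKM in metastases 1 to 3 and 506, 249 and 285 FPKM in primary tumors 1 to 3. H2-K1 in sorted cells was at 66.4, 77.4 and 79.6 FPKM. The 3 metastases lay close together and above every other library. It rose by 1.42 ± 0.31, adjusted p = 0.00219 in the allograft tumors, 2.96 ± 0.31, adjusted p = 2.44e-05 in the metastases and 2.14 ± 0.31, adjusted p = 3.64e-04 in the primary tumors. H2-D1 (chr17:35262730-35267499), the D heavy chain, was at 543, 469 and 170.4 FPKM in allograft tumors 1 to 3, 638, 599 and 624 FPKM in metastases 1 to 3 and 477, 235 and 258 FPKM in primary tumors 1 to 3. For H2-D1 the sorted cells gave 81.4, 78.8 and 72.2 FPKM. Allograft tumors 1 and 2 reached the range of the other tumors for this gene and allograft tumor 3 did not. The change was 2.17 ± 0.40, adjusted p = 7.27e-04 in the allograft tumors, 2.99 ± 0.40, adjusted p = 1.05e-04 in the metastases and 1.97 ± 0.40, adjusted p = 0.00244 in the primary tumors. Rescaled to TPM, all 3 calls held in the metastases and that of H2-K1 held in the primary tumors, but in the primary tumors B2m came to 0.78, adjusted p = 0.118 and H2-D1 to 0.87, adjusted p = 0.129, and in the allograft tumors B2m came to 0.66, adjusted p = 0.167, H2-K1 to 0.002, adjusted p = 1 and H2-D1 to 0.75, adjusted p = 0.17.

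H2-K1 was lower in the allograft tumors than in the metastases (-1.54 ± 0.31, adjusted p = 0.0057). Against the primary tumors the value was -0.72 ± 0.31, adjusted p = 0.0886, and without allograft tumor 1 it was -0.96, adjusted p = 0.0476. H2-D1 was not called in either comparison. All 5 endothelial and 4 of 6 T cell markers were lower in the allograft tumors than in the metastases too, and their part in the difference of H2-K1 was not tested. The balance of the 2 heavy chains was unlike that of the other groups, with a ratio of H2-D1 to H2-K1 of 1.95, 2.09 and 1.33 in allograft tumors 1 to 3, 1.13, 1 and 1.06 in metastases 1 to 3 and 0.943, 0.942 and 0.904 in primary tumors 1 to 3. In sorted cells H2-D1 over H2-K1 was at 1.23, 1.02 and 0.906. All 3 allograft tumors lay above the 9 other libraries. H2-K1 and H2-D1 share 22.8% and 26.9% of their words with other genes, 11.1% and 13.8% with each other. In mixed backgrounds, and with a NOD/scid host in the allografts alone, the match of reads to the reference allele may differ between them. This was not tested.

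In the metastases against the primary tumors none of the 3 passed: B2m differed by 1.03 ± 0.37, adjusted p = 0.0711, H2-K1 by 0.82 ± 0.31, adjusted p = 0.0883 and H2-D1 by 1.01 ± 0.40, adjusted p = 0.0989. Without primary tumor 1, whose values were near those of the metastases, the differences were 1.41, adjusted p = 0.00611, 1.13, adjusted p = 0.0111 and 1.33, adjusted p = 0.0258. In that setting 12 members were higher and 3 lower in the metastases, beside 20.2% and 18.2% of all genes. Primary tumors 2 and 3 were also those with many proximal tubule transcripts (3319 and 724 FPKM of the 7 markers) and few macrophage transcripts, and the part of these in the difference was not tested.

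All 7 genes of peptide supply and loading rose in each kind of tumor. Psmb8, Psmb9 and Psmb10 encode the catalytic subunits of the immunoproteasome. These can replace the constitutive subunits encoded by Psmb5, Psmb6 and Psmb7, for example but not only where interferon gamma acts. Psmb8 (chr17:34197721-34201454) was at 131, 68.4 and 21.7 FPKM in allograft tumors 1 to 3, 80.8, 83.8 and 82.2 FPKM in metastases 1 to 3 and 74.7, 23.3 and 27.4 FPKM in primary tumors 1 to 3. Psmb8 in sorted cells was at 4.23, 1.79 and 2.53 FPKM. Primary tumors 2 and 3 and allograft tumor 3 were the lowest of the tumors and still several times above the sorted cells. It rose by 3.99 ± 0.59, adjusted p = 1.63e-04 in the allograft tumors, 4.48 ± 0.59, adjusted p = 8.99e-05 in the metastases and 3.33 ± 0.59, adjusted p = 0.0011 in the primary tumors. Psmb9 (chr17:34181987-34187764) was at 34.8, 23.4 and 8.72 FPKM in allograft tumors 1 to 3, 35.6, 39.3 and 40.1 FPKM in metastases 1 to 3 and 40.6, 14.2 and 17 FPKM in primary tumors 1 to 3. For Psmb9 the sorted cells gave 1.27, 1.73 and 1.07 FPKM. Psmb10 (chr8:105935735-105938444) was at 85.8, 45.8 and 24.9 FPKM in allograft tumors 1 to 3, 38.9, 40.2 and 40.5 FPKM in metastases 1 to 3 and 40.7, 15.5 and 15 FPKM in primary tumors 1 to 3. In sorted cells Psmb10 was at 4.21, 3.17 and 2.71 FPKM. Allograft tumor 3 and primary tumors 2 and 3 were again the lowest of the tumors, and the changes were 3.12 ± 0.46, adjusted p = 1.64e-04, 4.07 ± 0.46, adjusted p = 3.69e-05 and 3.26 ± 0.46, adjusted p = 3.01e-04 for Psmb9 and 3.45 ± 0.44, adjusted p = 6.35e-05, 3.24 ± 0.44, adjusted p = 1.10e-04 and 2.36 ± 0.44, adjusted p = 0.00148 for Psmb10 in allograft tumors, metastases and primary tumors.

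The constitutive counterparts changed less. Psmb5 was called in none of the 3 comparisons with the sorted cells, Psmb6 was higher in the allograft tumors (1.63 ± 0.35, adjusted p = 0.00172) and the metastases (0.89 ± 0.35, adjusted p = 0.0406), and Psmb7 was higher in the allograft tumors (0.98 ± 0.35, adjusted p = 0.0271). The ratio of Psmb8 to Psmb5 was 1.46, 0.778 and 0.378 in allograft tumors 1 to 3, 0.898, 1.01 and 0.992 in metastases 1 to 3 and 0.991, 0.16 and 0.449 in primary tumors 1 to 3. Psmb8 over Psmb5 in sorted cells was at 0.0597, 0.0277 and 0.0334. Every tumor library was above every sorted library, and the metastases and primary tumor 1 were near parity. Psmb9 over Psmb6 was 0.109, 0.134 and 0.0783 in allograft tumors 1 to 3, 0.335, 0.338 and 0.373 in metastases 1 to 3 and 0.471, 0.107 and 0.265 in primary tumors 1 to 3. For Psmb9 over Psmb6 the sorted cells gave 0.0218, 0.0289 and 0.0184. For this pair the allograft tumors lay below the metastases without overlap, whereas Psmb10 over Psmb7, at 0.231 to 0.336 in the allograft tumors, 0.3 to 0.333 in the metastases and 0.0817 to 0.37 in the primary tumors, against 0.0285 to 0.056 in the sorted cells, overlapped between them.

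**Figure D4:**
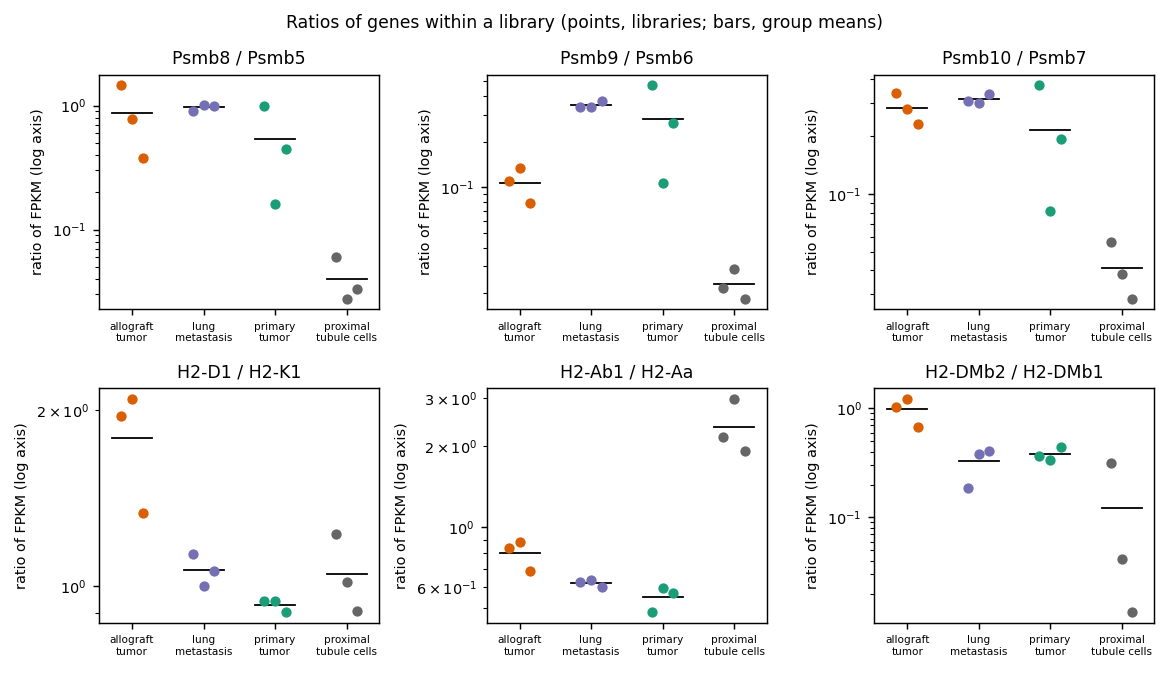
Ratios of the FPKM of paired genes within each library on log axes, with points for libraries and bars for group means. The 3 immunoproteasome ratios are lowest in the proximal tubule cells; H2-D1 over H2-K1 and H2-DMb2 over H2-DMb1 are highest in the allograft tumors, and H2-Ab1 over H2-Aa is highest in the proximal tubule cells.

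Tap1 (chr17:34187553-34197225) and Tap2 (chr17:34203527-34216321) encode the paired chains of the peptide transporter. Tap1 was at 24.3, 15.2 and 6.48 FPKM in allograft tumors 1 to 3, 30.9, 34.5 and 32.4 FPKM in metastases 1 to 3 and 32.1, 11.4 and 15.3 FPKM in primary tumors 1 to 3. In sorted cells Tap1 was at 2.14, 1.86 and 1.8 FPKM. Tap2 was at 16.6, 18.9 and 7.5 FPKM in allograft tumors 1 to 3, 26.3, 24.8 and 27.2 FPKM in metastases 1 to 3 and 22, 14 and 16.2 FPKM in primary tumors 1 to 3. Tap2 in sorted cells was at 5.89, 5.23 and 5.25 FPKM. Allograft tumor 3 was the lowest tumor library for both, and all tumor libraries were above the sorted cells. Tap1 rose by 2.31 ± 0.43, adjusted p = 7.03e-04 in the allograft tumors, 3.52 ± 0.43, adjusted p = 5.44e-05 in the metastases and 2.68 ± 0.43, adjusted p = 5.90e-04 in the primary tumors. Tap2 rose by 1.16 ± 0.29, adjusted p = 0.00424, 2.07 ± 0.29, adjusted p = 1.22e-04 and 1.49 ± 0.29, adjusted p = 0.00171 in the same order. The ratio of Tap1 to Tap2 was 0.805 to 1.46 in the allograft tumors, 1.17 to 1.39 in the metastases and 0.814 to 1.46 in the primary tumors, against 0.343 to 0.363 in the sorted cells, so Tap1 gained more than Tap2. Tap2 was lower in the allograft tumors than in the metastases (-0.91 ± 0.29, adjusted p = 0.0423), a call lost without allograft tumor 1, allograft tumor 3 (-0.53, adjusted p = 0.0651) or any 1 metastasis; Tap1 gave -1.21 ± 0.43, adjusted p = 0.0663, and -1.61, adjusted p = 0.0274 without allograft tumor 1.

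Tapbp (chr17:33915899-33929292), which encodes tapasin, was at 71.2, 64.2 and 51.1 FPKM in allograft tumors 1 to 3, 88.8, 83.5 and 79 FPKM in metastases 1 to 3 and 76.4, 46.3 and 54.7 FPKM in primary tumors 1 to 3. For Tapbp the sorted cells gave 23, 22.6 and 25.5 FPKM. Erap1 (chr13:74639568-74693201), the aminopeptidase that trims peptides in the endoplasmic reticulum, was at 46.7, 27.4 and 27 FPKM in allograft tumors 1 to 3, 34.9, 34.4 and 36.5 FPKM in metastases 1 to 3 and 34.6, 23.9 and 22.9 FPKM in primary tumors 1 to 3. In sorted cells Erap1 was at 11.2, 10.9 and 11.5 FPKM. Both were already well expressed in the sorted cells and rose by less than Tap1 and the proteasome genes. The change of Tapbp was 1.35 ± 0.19, adjusted p = 1.29e-04 in the allograft tumors, 1.78 ± 0.19, adjusted p = 2.70e-05 in the metastases and 1.26 ± 0.19, adjusted p = 4.66e-04 in the primary tumors, and that of Erap1 was 1.46 ± 0.22, adjusted p = 1.81e-04, 1.57 ± 0.22, adjusted p = 1.31e-04 and 1.19 ± 0.22, adjusted p = 0.00142. Rescaled to TPM, the calls of Tap2, Tapbp and Erap1 were lost in the allograft tumors (-0.096, adjusted p = 0.831, -0.042, adjusted p = 0.907 and 0.11, adjusted p = 0.683) and in the primary tumors (0.49, adjusted p = 0.27, 0.18, adjusted p = 0.614 and 0.14, adjusted p = 0.623).

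Both coactivators rose. Nlrc5 (chr8:94434356-94527272), the class I coactivator, was at 4.38, 4.5 and 1.84 FPKM in allograft tumors 1 to 3, 5.74, 7.42 and 7.97 FPKM in metastases 1 to 3 and 9.83, 4.06 and 6.52 FPKM in primary tumors 1 to 3. Nlrc5 in sorted cells was at 0.403, 0.104 and 0.135 FPKM. Ciita (chr16:10480059-10528418), the class II coactivator, was at 15, 8.73 and 3.58 FPKM in allograft tumors 1 to 3, 6.83, 7.4 and 9.28 FPKM in metastases 1 to 3 and 11.6, 8.56 and 10.8 FPKM in primary tumors 1 to 3. For Ciita the sorted cells gave 0.905, 0.49 and 0.36 FPKM. Neither was at 0 in the sorted cells, and every tumor library was above them. Nlrc5 rose by 1.86 ± 0.32, adjusted p = 3.97e-04 in the allograft tumors, 2.73 ± 0.32, adjusted p = 4.07e-05 in the metastases and 2.62 ± 0.32, adjusted p = 1.19e-04 in the primary tumors. Ciita rose by 2.51 ± 0.37, adjusted p = 1.61e-04 in the allograft tumors, 2.48 ± 0.37, adjusted p = 1.96e-04 in the metastases and 2.84 ± 0.37, adjusted p = 1.86e-04 in the primary tumors. Between the tumor kinds neither was called.

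Lists of other pathway genes were counted beside all tested genes, of which 52.2% were higher than in the sorted cells in the allograft tumors, 54.0% in the metastases and 48.2% in the primary tumors. Counts of a list near these shares are no result about the list. Of 13 regulators, 9 were higher and 2 lower in the allograft tumors than in the sorted cells, 8 higher and 1 lower in the metastases, and 9 higher and 0 lower in the primary tumors. The list's median change was 1.17, 0.96 and 0.74, above the 0.66, 0.68 and 0.59 of all genes. The largest rise in each was that of Spi1, a macrophage and B cell transcription factor, at 5.04 ± 0.49, adjusted p = 1.30e-05 in the allograft tumors, 4.82 ± 0.49, adjusted p = 1.76e-05 in the metastases and 3.25 ± 0.49, adjusted p = 4.00e-04 in the primary tumors. It was at 45.3, 41.4 and 19.8 FPKM in allograft tumors 1 to 3, 26.9, 29.4 and 29.3 FPKM in metastases 1 to 3 and 23.9, 4.79 and 5.82 FPKM in primary tumors 1 to 3. In sorted cells Spi1 was at 0.134, 0 and 0 FPKM. As with the macrophage sum, primary tumors 2 and 3 were the lowest of the tumors. Irf2, which binds interferon response elements, was the largest fall in the allograft tumors (-1.12 ± 0.26, adjusted p = 0.00261), with 3.26, 4.94 and 6.43 FPKM in allograft tumors 1 to 3, 12.7, 13 and 15.5 in metastases 1 to 3 and 16.5, 9.02 and 15.6 in primary tumors 1 to 3, against 13.1, 11.7 and 9.84 FPKM in the proximal tubule cells, and was also lower there than in the metastases (-1.36 ± 0.26, adjusted p = 0.00388) and the primary tumors (-1.32 ± 0.26, adjusted p = 0.00276). Rfxank, a subunit of the RFX complex, fell in the metastases (-0.44 ± 0.18, adjusted p = 0.0488).

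Of 7 interferon gamma signalling genes, 6 were tested, and Ifng itself, at most 0.712 FPKM in any library and listed at 0 in the sorted cells, was not. Of these 6, 5 were higher in the allograft tumors than in the sorted cells, and in the metastases and the primary tumors 6 were, with none lower. Their medians were 1.5, 2.02 and 1.46. The receptor chain gene Ifngr1 had the largest change, at 2.75 ± 0.31, adjusted p = 2.69e-05 in the allograft tumors, 2.92 ± 0.31, adjusted p = 2.21e-05 in the metastases and 2.12 ± 0.31, adjusted p = 3.28e-04 in the primary tumors.

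The remaining lists were mostly nearer to all genes. Of 12 further genes of class I peptide loading, 8 were higher in the allograft tumors than in the sorted cells, 7 higher and 1 lower in the metastases, and 6 higher in the primary tumors. Sec61b, a subunit of the translocon, led the allograft tumors (2.13 ± 0.26, adjusted p = 5.22e-05), and Mr1, a class I like molecule that shows vitamin metabolites, led the metastases (2.26 ± 0.24, adjusted p = 2.62e-05) and the primary tumors (1.74 ± 0.24, adjusted p = 2.67e-04), while Npepps, an aminopeptidase gene, fell in the metastases (-0.58 ± 0.18, adjusted p = 0.0168). The list medians, 0.75, 0.69 and 0.30, stand beside 0.66, 0.68 and 0.59 for all genes. Of 7 proteasome activator and constitutive subunits 5, 4 and 2 were higher, led each time by the activator Psme1 (1.80 ± 0.22, adjusted p = 4.26e-05 in the allograft tumors, 2.17 ± 0.22, adjusted p = 1.66e-05 in the metastases and 1.59 ± 0.22, adjusted p = 2.32e-04 in the primary tumors). Of 9 genes of endosomal processing and class II turnover 4, 4 and 3 were higher in the same order, fewer than the share of all genes in each, led by the ubiquitin ligase gene March1 (2.76 ± 0.42, adjusted p = 2.04e-04, 2.57 ± 0.42, adjusted p = 3.66e-04 and 1.79 ± 0.42, adjusted p = 0.00524), and March8 fell in the allograft tumors (-1.41 ± 0.30, adjusted p = 0.00162) and the metastases (-1.32 ± 0.30, adjusted p = 0.00251). All 4 costimulation genes, Cd80, Cd86, Cd40 and Icosl, were higher in each kind of tumor, led by Cd86 (3.86 ± 0.43, adjusted p = 2.89e-05, 3.45 ± 0.43, adjusted p = 6.71e-05 and 2.96 ± 0.43, adjusted p = 3.64e-04); Cd80 and Cd86 are typical of antigen presenting cells and were at 0 to 0.0691 FPKM in the sorted cells.

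The same lists between the tumor kinds gave fewer calls. In the allograft tumors against the metastases, where 10.4% of all genes were higher and 13.3% lower, the loading list had 2 higher and 1 lower (Thop1 1.06 ± 0.19, Mr1 -0.94 ± 0.24), the regulators 1 and 1 (Rfxap 0.62 ± 0.18, Irf2), interferon gamma signalling 0 and 2, the proteasome list 1 and 0 (Psme3 0.54 ± 0.18), the endosomal list 0 and 1 (Ctsd -1.30 ± 0.31) and costimulation none. Against the primary tumors, with 20.5% of all genes higher and 21.1% lower, these counts were 6 and 0, 3 and 3, 1 and 1, 1 and 0, 1 and 1, and 0 and 1, with Thop1 (1.38 ± 0.19), Spi1 (1.79 ± 0.49), Jak2 (0.46 ± 0.14), Psmb6 (1.02 ± 0.35) and Ifi30 (1.30 ± 0.29) as the largest rises and Irf2, Jak1 (-0.41 ± 0.13), March8 (-1.13 ± 0.30) and Icosl (-0.97 ± 0.30) as the largest falls. In the metastases against the primary tumors, beside 11.3% and 9.59% of all genes, the counts were 2 and 0 for loading, 1 and 0 for the regulators, 2 and 0 for interferon gamma signalling and 1 and 1 for the endosomal list, with no call in the proteasome and costimulation lists. Thop1 encodes a peptidase that destroys peptides in the cytosol.

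The class I genes outside K and D, in the Q, T and M regions, split between the tumor kinds. They held 9 of the 14 calls of the allograft tumors against the metastases and 10 of the 16 against the primary tumors. Among the 42 tested members were 7 Q, 6 T and 3 M region genes. Of all genes 10.4% were higher and 13.3% lower in the first comparison, and 20.5% and 21.1% in the second. H2-M9 and H2-Bl passed the filter only through the allograft tumors, and H2-Q1 and H2-Q10 only through the metastases and primary tumors, which favored their calls. These genes resemble each other closely: H2-T22 and H2-T10 share 67.4% and 64.2% of their words with other transcripts, 47.2% and 47.6% with each other, and H2-Q5, H2-Q4 and H2-Q6 share 57.9%, 53.1% and 51.8%. The number of Q and T genes and their sequences differ between H2 haplotypes. Levels of single Q and T genes are therefore uncertain.

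H2-Q2 (chr17:35342242-35346762) was at 42.6, 37.8 and 12 FPKM in allograft tumors 1 to 3, 2.97, 1.55 and 2.36 FPKM in metastases 1 to 3 and 0.634, 1.06 and 1.54 FPKM in primary tumors 1 to 3. H2-Q2 in sorted cells was at 0.594, 0.623 and 0.672 FPKM. All 3 allograft tumors were above every other library, although allograft tumor 3 had less than the others. It was higher in the allograft tumors than in the metastases (3.11 ± 0.40, adjusted p = 3.74e-04), than in the primary tumors (3.78 ± 0.40, adjusted p = 1.48e-04) and than in the sorted cells (4.10 ± 0.40, adjusted p = 1.37e-05). A rise in the metastases over the sorted cells (0.99 ± 0.40, adjusted p = 0.046) was lost without metastasis 1 (0.85, adjusted p = 0.135), metastasis 3 or any 1 proximal tubule library. H2-Q2 shares 32.8% of its words with other transcripts, and the gene it shares most with, H2-Q1, had its lowest tumor values in the allografts. H2-Q1 was at 0.438 to 0.666 FPKM in the allograft tumors, 1.01 to 1.73 FPKM in the metastases, 1.5 to 3.48 FPKM in the primary tumors and 0.191 to 0.462 FPKM in the sorted cells, and fell in the allograft tumors against the primary tumors (-1.13 ± 0.22, adjusted p = 0.00244).

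H2-M9 (chr17:36639285-36642666), of the M region family known from vomeronasal neurons, was at 3.27, 4.45 and 5.07 FPKM in allograft tumors 1 to 3, 0, 0.0673 and 0 FPKM in metastases 1 to 3 and 0, 0 and 0 FPKM in primary tumors 1 to 3. For H2-M9 the sorted cells gave 0, 0 and 0 FPKM. It was seen in all 3 allograft tumors and, apart from a trace in metastasis 2, in no other library. It was called higher in the allograft tumors than in the metastases (2.35 ± 0.14, adjusted p = 2.47e-06), the primary tumors (adjusted p = 1.14e-05) and the sorted cells (adjusted p = 1.44e-06); where the other group is listed at 0 no fold is given. H2-M9 passed the filter only through the allograft tumors, so it had to differ there. Only 4.31% of its words occur in another gene, H2-M1, which was near 0 throughout. H2-Bl, an annotated pseudogene of the T region, was at 11.7, 9.49 and 2.28 FPKM in allograft tumors 1 to 3, 0.948, 0.0899 and 0.2 FPKM in metastases 1 to 3 and 0.118, 1.37 and 0.58 FPKM in primary tumors 1 to 3. In sorted cells H2-Bl was at 0, 1.32 and 0.475 FPKM. It too was higher in the allograft tumors than in the metastases (2.47 ± 0.52, adjusted p = 0.00646), the primary tumors (2.23 ± 0.52, adjusted p = 0.0065) and the sorted cells (2.33 ± 0.52, adjusted p = 0.00217). Of the 5 libraries with H2-Bl at 1 FPKM or more, 3 were the allograft tumors. It thus passed the filter only through them, which favored these calls. H2-T10 (chr17:36115876-36121465), with H2-T22 a ligand of gamma delta T cell receptors, was at 13.7, 12.3 and 7.2 FPKM in allograft tumors 1 to 3, 5.7, 7.81 and 6.2 FPKM in metastases 1 to 3 and 5.3, 4.37 and 5.05 FPKM in primary tumors 1 to 3. H2-T10 in sorted cells was at 0.685, 1.87 and 1.19 FPKM. It was higher in the allograft than in the primary tumors (0.99 ± 0.26, adjusted p = 0.0113). This call was lost under TPM (0.66, adjusted p = 0.127), without the 50 most abundant genes (0.69, adjusted p = 0.0798), with the 2 groups alone (0.99, adjusted p = 0.0596) and without primary tumors 2 and 3 (0.89, adjusted p = 0.135).

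The other direction was seen for 4 genes with high levels in metastases and primary tumors. H2-T22 (chr17:36037128-36042747) was at 20.8, 11 and 19.9 FPKM in allograft tumors 1 to 3, 69.5, 75.7 and 70.1 FPKM in metastases 1 to 3 and 64.8, 60.2 and 38.2 FPKM in primary tumors 1 to 3. For H2-T22 the sorted cells gave 22.3, 16.1 and 23.3 FPKM. The allograft tumors were at the level of the sorted cells and below every metastasis and primary tumor. In the allografts H2-T22 fell against the metastases (-2.05 ± 0.27, adjusted p = 4.21e-04) and the primary tumors (-1.62 ± 0.27, adjusted p = 0.00122), while it rose in the metastases (1.77 ± 0.27, adjusted p = 2.06e-04) and the primary tumors (1.34 ± 0.27, adjusted p = 0.00207) against the sorted cells; in the allograft tumors against those cells it gave -0.28 ± 0.27, adjusted p = 0.375, a value of 0.00011, adjusted p = 1 without allograft tumor 2 and a fall under TPM (-1.61, adjusted p = 8.00e-05). The ratio of H2-T10 to H2-T22 was 0.362 to 1.11 in the allograft tumors, 0.082 to 0.103 in the metastases, 0.0726 to 0.132 in the primary tumors and 0.0306 to 0.116 in the sorted cells. H2-T23 (chr17:36029773-36032855) encodes Qa-1, which shows leader peptides of other class I chains to inhibitory receptors of NK cells. It was at 47.2, 34.9 and 37 FPKM in allograft tumors 1 to 3, 102, 101 and 112 FPKM in metastases 1 to 3 and 112, 113 and 75.2 FPKM in primary tumors 1 to 3. In sorted cells H2-T23 was at 55.6, 32 and 43 FPKM. It fell in the allograft tumors against the metastases (-1.40 ± 0.23, adjusted p = 0.00172) and the primary tumors (-1.30 ± 0.23, adjusted p = 0.00165), rose in the metastases (1.29 ± 0.23, adjusted p = 5.91e-04) and the primary tumors (1.20 ± 0.23, adjusted p = 0.00168) against the sorted cells, and gave -0.11 ± 0.23, adjusted p = 0.695 in the allograft tumors against those cells (0.084, adjusted p = 0.769 without proximal tubule library 1, and a fall under TPM, -1.49, adjusted p = 2.73e-04). Under TPM the rises in the primary tumors were lost for H2-T22 (0.26, adjusted p = 0.317) and H2-T23 (0.10, adjusted p = 0.734), and that of H2-T23 in the metastases too (0.24, adjusted p = 0.401).

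H2-Q7 (chr17:35439155-35443773), which encodes a Qa-2 molecule, was at 12.1, 12.1 and 8.88 FPKM in allograft tumors 1 to 3, 43.8, 57.3 and 60.4 FPKM in metastases 1 to 3 and 36, 27.3 and 30.9 FPKM in primary tumors 1 to 3. H2-Q7 in sorted cells was at 3.99, 4.25 and 2.58 FPKM. The groups were ordered metastases, primary tumors, allograft tumors and sorted cells with no overlap between neighbours. H2-Q7 fell in the allograft tumors against the metastases (-2.19 ± 0.20, adjusted p = 5.07e-05) and the primary tumors (-1.43 ± 0.20, adjusted p = 6.19e-04), and each kind of tumor was above the sorted cells (1.39 ± 0.20, adjusted p = 1.57e-04, 3.58 ± 0.20, adjusted p = 6.95e-07 and 2.82 ± 0.20, adjusted p = 8.29e-06 in allograft tumors, metastases and primary tumors), though under TPM the allograft value was 0.18, adjusted p = 0.609. It was the 1 member called higher in the metastases than in the primary tumors (0.76 ± 0.20, adjusted p = 0.0283), a call lost without metastasis 2 (0.71, adjusted p = 0.102), metastasis 3 (0.67, adjusted p = 0.103), primary tumor 2 (0.66, adjusted p = 0.0867) or primary tumor 3 (0.75, adjusted p = 0.0811). H2-Q5 (chr17:35394126-35397800) was at 87, 54.7 and 53.3 FPKM in allograft tumors 1 to 3, 357, 278 and 349.96 FPKM in metastases 1 to 3 and 141, 215 and 153 FPKM in primary tumors 1 to 3. For H2-Q5 the sorted cells gave 4.13, 2.59 and 19.1 FPKM. It fell in the allograft tumors against the metastases (-2.35 ± 0.52, adjusted p = 0.00885) and was above the sorted cells in each kind of tumor (3.16 ± 0.52, adjusted p = 3.17e-04, 5.51 ± 0.52, adjusted p = 1.20e-05 and 4.55 ± 0.52, adjusted p = 9.10e-05). H2-Q10, whose product is secreted by the liver, stayed at 0.252 to 0.641 FPKM in the allograft tumors, 1.52 to 2.11 FPKM in the metastases, 0.573 to 3.26 FPKM in the primary tumors and 0 to 0.44 FPKM in the sorted cells, and its falls in the allograft tumors (adjusted p = 0.0482 against the metastases and adjusted p = 0.0498 against the primary tumors) did not survive leaving out any 1 allograft tumor, with adjusted p = 0.122 and 0.128 without allograft tumor 3.

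**Figure D5:**
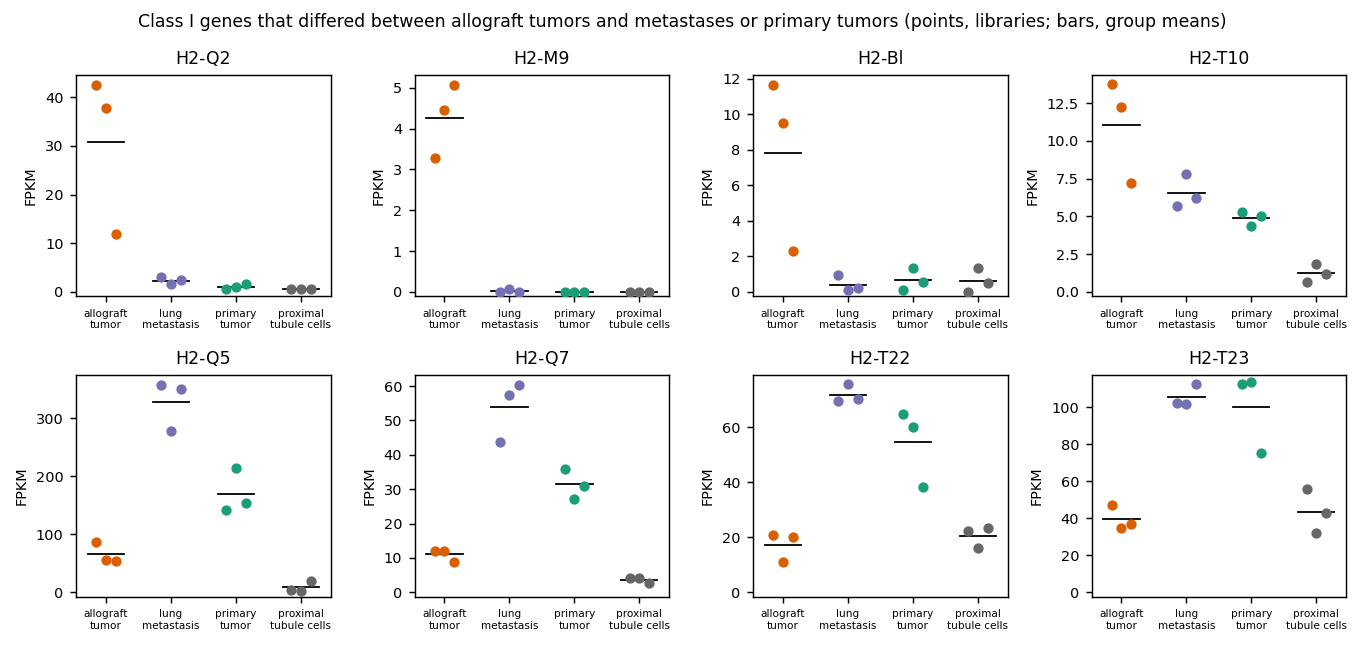
FPKM of 8 class I genes outside K and D in each library (points) with group means (bars), each panel from 0 on its own scale. H2-Q2, H2-M9, H2-Bl and H2-T10 have their highest libraries in the allograft tumors, and H2-Q5, H2-Q7, H2-T22 and H2-T23 are lower in all 3 allograft tumors than in every metastasis.

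Of the other class I genes, H2-Q4, H2-Q6, H2-T24 and H2-M3 were not called between any of the tumor kinds. H2-Q4 (chr17:35379617-35385290) was at 93.1, 98.7 and 158 FPKM in allograft tumors 1 to 3, 136, 166 and 168 FPKM in metastases 1 to 3 and 129, 105 and 122 FPKM in primary tumors 1 to 3. In sorted cells H2-Q4 was at 88.7, 67.8 and 64.9 FPKM. It was high in the sorted cells already, and its calls against them (0.63 ± 0.22, adjusted p = 0.0269 in the allograft tumors, 1.08 ± 0.22, adjusted p = 0.00141 in the metastases and 0.69 ± 0.22, adjusted p = 0.0239 in the primary tumors) depended on scaling. Under TPM the allograft tumors came to -0.78, adjusted p = 0.0336 and the primary tumors to -0.41, adjusted p = 0.248, so no direction is given for it, and the calls in both were also lost without proximal tubule library 2 or 3. H2-Q6 (chr17:35424850-35430055) was at 86.2, 81.2 and 33.8 FPKM in allograft tumors 1 to 3, 72.9, 83.2 and 106 FPKM in metastases 1 to 3 and 68.3, 58.6 and 66.5 FPKM in primary tumors 1 to 3. H2-Q6 in sorted cells was at 6.35, 9.57 and 5.96 FPKM. It rose in each kind of tumor (2.95 ± 0.33, adjusted p = 2.59e-05, 3.42 ± 0.33, adjusted p = 1.26e-05 and 3.00 ± 0.33, adjusted p = 6.98e-05). H2-T24 (chr17:36005695-36020560) was at 8.51, 7.06 and 4.63 FPKM in allograft tumors 1 to 3, 10.002, 12.4 and 12.4 FPKM in metastases 1 to 3 and 15.3, 7.27 and 11.4 FPKM in primary tumors 1 to 3. For H2-T24 the sorted cells gave 3.44, 3.6 and 1.51 FPKM. It too was called higher in each (1.02 ± 0.31, adjusted p = 0.0131, 1.75 ± 0.31, adjusted p = 5.95e-04 and 1.67 ± 0.31, adjusted p = 0.00143), but in the allograft tumors TPM gave -0.11, adjusted p = 0.812, and the call was lost without allograft tumor 1 or proximal tubule library 3. H2-M3 (chr17:37270220-37274484), which shows peptides that begin with formylmethionine, as bacterial ones do, was at 28.5, 16 and 16.3 FPKM in allograft tumors 1 to 3, 17.4, 17.6 and 18.3 FPKM in metastases 1 to 3 and 18.8, 7.58 and 7.76 FPKM in primary tumors 1 to 3. In sorted cells H2-M3 was at 0.924, 0.834 and 0.644 FPKM. Its rise was among the largest of class I (3.51 ± 0.32, adjusted p = 9.71e-06, 3.39 ± 0.32, adjusted p = 1.19e-05 and 2.67 ± 0.32, adjusted p = 1.13e-04), with less than 1 FPKM in every sorted library. H2-M2 was at 2.11 to 4.29 FPKM in the allograft tumors, 3.37 to 3.88 FPKM in the metastases, 6.55 to 9.59 FPKM in the primary tumors and 0.123 to 0.693 FPKM in the sorted cells, highest in all 3 primary tumors. It was lower in the allograft tumors (-1.05 ± 0.23, adjusted p = 0.00507) and in the metastases (-0.89 ± 0.23, adjusted p = 0.0236) than there. The call in the allograft tumors was lost with the 2 groups alone (-1.05, adjusted p = 0.0514) and without primary tumors 2 and 3 (-0.87, adjusted p = 0.0845), and that in the metastases was lost without any 1 metastasis or without primary tumor 3 (-0.74, adjusted p = 0.0913). H2-T3, the thymus leukemia antigen, stayed between 0 and 1.42 FPKM. It was called higher than in the sorted cells in each kind of tumor. In the primary tumors only 5 of 16 alternatives kept that call, and in the allograft tumors and in the metastases 14 of 15 did.

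Cd1d1 (chr3:86995834-86999441), outside the MHC, shows lipids to NKT cells. It was at 7.01, 13.9 and 3.79 FPKM in allograft tumors 1 to 3, 5.26, 6.98 and 6.19 FPKM in metastases 1 to 3 and 6.15, 1.29 and 1.46 FPKM in primary tumors 1 to 3. Cd1d1 in sorted cells was at 1.16, 1.21 and 0.872 FPKM. It rose in the allograft tumors (2.00 ± 0.46, adjusted p = 0.00284) and the metastases (1.78 ± 0.46, adjusted p = 0.00583) against the sorted cells and did not pass in the primary tumors (adjusted p = 0.206), of which the first was at the level of the other tumors. The call in the allograft tumors against the primary tumors (1.27 ± 0.46, adjusted p = 0.0476) was lost without allograft tumor 1, allograft tumor 2 (0.85, adjusted p = 0.162), primary tumor 2 or primary tumor 3, and the groups overlapped. It shares 24.8% of its words with other genes, chiefly Cd1d2. The pseudogene H2-K2 was at 4.23 to 11.8 FPKM in the allograft tumors, 6.04 to 6.8 FPKM in the metastases, 4.77 to 6.05 FPKM in the primary tumors and 2.56 to 4.62 FPKM in the sorted cells, and its call in the allograft tumors (0.80 ± 0.30, adjusted p = 0.0336) was lost without allograft tumor 1 (0.48, adjusted p = 0.129) or 2 or proximal tubule library 3.

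H2-Ke6 (chr17:34026033-34028060), the dehydrogenase gene, went against the rest of the set. It was at 12.4, 17.2 and 11.1 FPKM in allograft tumors 1 to 3, 19.8, 17.7 and 18.3 FPKM in metastases 1 to 3 and 17.7, 68.5 and 33.8 FPKM in primary tumors 1 to 3. For H2-Ke6 the sorted cells gave 49.8, 48.8 and 46.9 FPKM. It fell in the allograft tumors (-1.79 ± 0.37, adjusted p = 0.00148) and the metastases (-1.34 ± 0.37, adjusted p = 0.00832) against the sorted cells, and it was the 1 member called lower in either. In the primary tumors, where the value was -0.47 ± 0.37, adjusted p = 0.3, library 2 was above the sorted cells and libraries 1 and 3 below, as the proximal tubule markers were ordered among these 3 libraries, and without primary tumor 2 it fell (-0.95, adjusted p = 0.0103). It was lower in the allograft than in the primary tumors (-1.31 ± 0.37, adjusted p = 0.0171), a call lost without allograft tumor 1 or 3. Of its words, 76.1% are shared with the overlapping gene model Gm20427.

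The 9 members not tested were M region genes: H2-M1, H2-M5, H2-M10.1 to H2-M10.6 and H2-M11. None reached 1 FPKM in 3 libraries, and none was above 0 in the proximal tubule cells. The highest value was that of H2-M11, at 1.39, 0.644 and 0.405 FPKM in allograft tumors 1 to 3, 0.125, 0 and 0 FPKM in the metastases and 0, 0.0842 and 0 FPKM in the primary tumors. H2-M10.4 was listed at 0 in every library, and 35 of the 51 members were above 0 in all 12.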

How the data were processed

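Bulk RNA of 12 mouse libraries in 4 groups of 3 was sequenced. The authors deposited 1 table of FPKM for 24432 genes; bcl2fastq 2.17.1.14, Salmon and the builds GRCm38 and mm10 are named, per the submitters' processing notes. No source used here states how FPKM were derived, which gene lengths were taken, the strandedness or the kind of library. Columns summed to 706093 to 2527747 FPKM. Genes were named and placed with GENCODE M21 (24189 had a symbol), and 31-letter words of its transcripts were compared between genes. Rough depth was the most common depth at which a low FPKM value would stand for 1 fragment, over genes with 1 annotated transcript. It rests on that assumption and, in the proximal tubule libraries, on fewer low values (396 to 438, against 763 to 1213 in the tumors). The members, gene lists and tests were chosen with earlier results of these data known.

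Tests covered genes that reached 1 FPKM in 3 libraries or more, on log2(FPKM + 1) with limma 3.58.1 in R 4.3.3: 4 groups together, a mean-variance trend, no covariates, 6 comparisons, Benjamini-Hochberg adjustment over all genes of each and a threshold of 0.05. The fit was tested on simulated data. Members with a group mean of 10 FPKM or more, and the main genes of each role, are given per library; of each pathway list the called gene with the largest change in each direction is named, and Psmb5, Psmb7, Cd80, Cd40 and the marker genes besides, some chosen after their values were seen. Library numbers were checked for pairing by correlating deviations from group means (18 correlations, -0.0433 to 0.0977, 0 of them over 0.1), and were not used as pairs. Ratios are of FPKM within a library, without a test.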

Additional observations from a re-analysis of the deposited data

How the results depend on the processing

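Followed under the alternatives were 155 member results: those called in the main fit and a list of uncalled ones printed here. The other uncalled results are not in the counts below, so most calls that they gained and signs that they changed are left out. Over all 42 tested members, 20 gained a call under array weights and 13 without primary tumor 1 in the metastases against the primary tumors. There 32.2% of all genes were higher and 27.6% lower under array weights, and 20.2% and 18.2% without primary tumor 1. Of the 155 results, 88 kept their direction and their side of the threshold under every alternative tried. Of their 2651 alternative values 2382 did so, 222 lost the call, 32 gained one and 15 changed sign. The sign changes were, against the proximal tubule cells, H2-Q4 in the allograft tumors (-0.78 under TPM, -0.015 under median-of-ratios scaling, -0.082 without the 50 most abundant genes) and in the primary tumors (-0.41 under TPM), and under TPM in the allograft tumors H2-T24 (-0.11), H2-K2 (-0.37), Tap2 (-0.096) and Tapbp (-0.042). Under quantile normalization H2-Q1 (-0.26), H2-Q2 (-0.30) and H2-T3 (-0.15) turned in the metastases and H2-T3 (-0.28) in the primary tumors. With 1 library left out, H2-T22 ranged from -0.43 to 1.1e-04 (without allograft tumor 2) and H2-T23 from -0.31 to 0.084 (without proximal tubule library 1) in the allograft tumors against those cells, and H2-Aa from -0.51 to 0.034 (without primary tumor 1) in the metastases against the primary tumors.

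Counts of members called moved by over 1.5 times as follows. In the allograft tumors against the proximal tubule cells TPM gave 21 higher and 4 lower, and median-of-ratios scaling, quantile normalization and leaving out the 50 most abundant genes gave 3 lower each. In the primary tumors against those cells TPM gave 22 higher and 1 lower, 1 was lower under median-of-ratios scaling, array weights and without primary tumors 2 and 3, and leaving out single libraries gave 0 to 1 lower. In the allograft tumors against the metastases a filter at 5 FPKM gave 1 higher and 6 lower and array weights 6 and 17, and single libraries left out gave 3 to 6 higher and 7 to 9 lower. In the allograft tumors against the primary tumors the filter at 5 FPKM gave 5 lower, TPM, leaving out the 50 most abundant genes and fitting the 2 groups alone gave 3 higher each, array weights 13 higher, and leaving out primary tumors 2 and 3 gave 3 higher and 5 lower; single libraries left out gave 4 to 11 higher. In the metastases against the primary tumors 0 were lower at a pseudocount of 0.1, 0 were higher under TPM, without the 50 most abundant genes and with the 2 groups alone, 2 were higher under median-of-ratios scaling, array weights gave 19 and 3, leaving out primary tumors 2 and 3 gave 0 and 0, and single libraries left out gave 0 to 12 higher and 0 to 3 lower. Shares of all genes moved under array weights too. In the allograft tumors they were 19.9% higher and 20.1% lower against the metastases, and 28.9% and 27.6% against the primary tumors. In the metastases against the primary tumors they were 32.2% and 27.6%. The causes were not tested. With the replicate block 2 members were higher in the metastases than in the primary tumors, where Ctss passed (2.11, adjusted p = 0.0275), and no other count moved by over 1.5 times under it. No source used here says if the numbers pair the libraries. The correlations (highest 0.0977) showed no pairing but cannot exclude it. The lone library left by dropping primary tumors 2 and 3 is assumed to vary like the other groups. Depth limits the low members most, and the roughly estimated depth of the proximal tubule libraries was the lowest.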
